A study of Mus musculus with 4 samples.

Results

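The semaphorin family of guidance cues and its receptors was described in 4 whole-transcript arrays of mouse tumour cells. The members are all genes whose symbol in the platform annotation names a semaphorin of class 3 to 7, a plexin or a neuropilin, with the probe set of highest mean for each gene. They number 31 of the 19938 named genes: 2 neuropilins, 9 plexins and 20 semaphorins, of which 7 belong to class 3, 6 to class 4, 2 to class 5, 4 to class 6 and 1 to class 7. The family was chosen by the response of Nrp1 to Smarcb1, which was already known from these arrays. The change with Smarcb1 is therefore given for all members as a description. Counts of members that a fit over all genes called for it are printed beside the background, and nothing is read from them, whereas the difference between the tumour lines was not used in the choice and was tested.

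The arrays came from cancer cell lines 167 and 365, which derive from Smarcb1 deficient soft tissue tumours of p53 null mice heterozygous for Smarcb1. Smarcb1 belongs to SWI/SNF, a complex that remodels chromatin. All 4 cultures lack p53, share a C57BL6/SV129J background, and were infected with the pMIG retrovirus, either empty or carrying Smarcb1. RNA was taken 3 days after infection, with 1 array for each line and vector, so the 2 lines are the only replicates and no repeat culture is labelled. By the submitters' account this time was meant to favour genes that Smarcb1 regulates directly.

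Semaphorins are secreted or membrane-bound proteins that steer growing axons, vessels and migrating cells. Plexins are their transmembrane receptors, with a cytoplasmic domain that switches off small GTPases of the Ras and Rap type and so loosens adhesion and the actin cytoskeleton. Class 3 semaphorins are secreted, and most bind a neuropilin, which has a short cytoplasmic tail and passes the signal on through a plexin, while neuropilins also serve as co-receptors for vascular endothelial growth factors (VEGF). Classes 4 to 7 are anchored in the membrane and bind plexins directly.

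Smarcb1 signal was log2 4.61 with empty vector and 7.83 with Smarcb1 in line 167, and 6.01 and 9.61 in line 365, so the vector labels matched the signal. Of 8 mesenchymal markers, 7 lay above log2 4.27, the 30th percentile of gene means used as a filter level, on every array. Their median level was 8.20 without and 9.41 with Smarcb1 in line 167, and 5.94 and 6.0 in line 365. Of the matched markers of other cells, 6 of 9 for macrophages, 4 of 6 for lymphocytes, 4 of 11 for endothelium, 1 of 4 for Schwann and neural crest cells and 1 of 7 for epithelium lay below the filter level on all 4 arrays. The pan-leukocyte marker Ptprc, the endothelial markers Tek and Emcn and the epithelial marker Epcam were among these. Counted as for the mesenchymal list, 2 of 9, 2 of 6, 3 of 11, 3 of 4 and 5 of 7 lay above it on every array, in the same order. The keratin genes Krt8 and Krt18 were among the epithelial ones above it. The macrophage marker Cd68 was at 9.32 without and 8.69 with Smarcb1 in line 167, against 9.95 and 8.18 in line 365. The epithelial keratin gene Krt19 was at 4.67 and 6.52 in line 167 and at 5.59 and 8.27 in line 365, more than 2-fold higher with Smarcb1 in both. Their part in the results was not tested. In such bulk RNA, fewer cells that express a gene and less RNA of it per cell cannot be told apart.

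The upstream sequences of the members with the largest shared increases are shown first, with that of Sema3a as a class 3 gene without a shared increase. They are the 250 bases before the annotated start, 5′ to 3′, from the RefSeq promoter table, with matches to the GC box (GGGCGG or, on the other strand, CCGCCC) in capitals. Sema3f has no entry there, and of the 2 start sites of Sema6d the first along the chromosome is shown.
Nrp1 (GRCm38.p6, chr8:128358823-128359072, plus strand): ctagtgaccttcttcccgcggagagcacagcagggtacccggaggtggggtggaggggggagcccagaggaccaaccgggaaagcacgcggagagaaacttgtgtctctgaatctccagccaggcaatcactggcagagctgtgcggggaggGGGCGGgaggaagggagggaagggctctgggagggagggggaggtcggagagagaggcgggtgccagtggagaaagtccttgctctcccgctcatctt
Sema3c (GRCm38.p6, chr5:17574566-17574815, plus strand): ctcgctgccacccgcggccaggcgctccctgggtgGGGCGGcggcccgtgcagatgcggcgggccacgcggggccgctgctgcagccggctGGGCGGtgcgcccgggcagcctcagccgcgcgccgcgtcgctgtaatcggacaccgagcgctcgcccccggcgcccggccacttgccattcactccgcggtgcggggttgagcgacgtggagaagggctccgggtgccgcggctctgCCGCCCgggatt
Sema3e (GRCm38.p6, chr5:14025026-14025275, plus strand): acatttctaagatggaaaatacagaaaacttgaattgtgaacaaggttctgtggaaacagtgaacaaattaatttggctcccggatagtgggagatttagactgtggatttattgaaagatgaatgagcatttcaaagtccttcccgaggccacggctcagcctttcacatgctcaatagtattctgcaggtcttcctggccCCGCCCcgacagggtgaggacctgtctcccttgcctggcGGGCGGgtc
Sema6d (GRCm38.p6, chr2:124089719-124089968, plus strand): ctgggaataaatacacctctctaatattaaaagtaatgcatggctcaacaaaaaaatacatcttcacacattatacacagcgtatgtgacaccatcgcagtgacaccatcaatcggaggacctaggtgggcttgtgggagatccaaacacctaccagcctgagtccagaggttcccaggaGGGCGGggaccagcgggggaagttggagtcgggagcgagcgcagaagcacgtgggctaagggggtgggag
Sema3a (GRCm38.p6, chr5:13396534-13396783, plus strand): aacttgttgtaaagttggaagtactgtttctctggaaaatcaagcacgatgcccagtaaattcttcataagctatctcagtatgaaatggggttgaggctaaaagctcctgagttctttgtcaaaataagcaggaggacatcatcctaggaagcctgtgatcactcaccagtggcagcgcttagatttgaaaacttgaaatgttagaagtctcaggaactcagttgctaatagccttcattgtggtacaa
The Sema3c sequence held 3 GC boxes and 78.4% G and C, the Sema3e sequence 2 and 48.0%, the Nrp1 sequence 1 and 64.4%, and the Sema6d sequence 1 and 52.4%. At the second start site of Sema6d, not shown, the window held 0 GC boxes and 45.2% G and C. The Sema3a sequence held 0 GC boxes and 40.8% G and C. Over all 32851 promoters of this length in the table the median was 52.4% G and C, and 32.7% held a GC box. The family has 37 promoters for 26 members in the table, and 27 of these promoters (73.0%), from 21 of the 26 members, held one. Most of these 21 members were not at least 2-fold higher with Smarcb1 in both lines. The AP-1 letters TGANTCA occurred in 6.75% of all promoters and 3 of the 37, and the TEAD letters GGAATG or CATTCC in 12.6% and 3. None of the 5 sequences shown held either motif. These motifs were chosen with the changes known, matches are descriptions and not binding sites, and both strands were searched. Plxna1, Plxna4, Sema3b, Sema3f and Sema6a had no entry.

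With Smarcb1, 5 of the 31 members were at least 2-fold higher in both lines: the receptor gene Nrp1 and the ligand genes Sema3c, Sema3e, Sema3f and Sema6d. Of all named genes 0.933% met this limit. No member was 2-fold lower in both lines, where the background was 0.130%. In line 167, 7 members were at least 2-fold higher, against 2.53% of all named genes, and 1 was lower, against 1.08%. In line 365, 9 were higher, against 2.04%, and 2 were lower, against 0.843%. Members higher in both lines by any amount numbered 17, against 27.3% of all named genes, those lower in both numbered 4, against 30.2%, and 10 (32.3%) differed in sign between the lines, against 42.4% of all named genes. The median change of the 31 members was 0.24 in line 167 and 0.28 in line 365 on the log2 scale, beside -0.018 and -0.0012 for all named genes. A filter on dim genes kept 29 members and left out Plxnc1 and Sema4f.

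**Figure D1:**
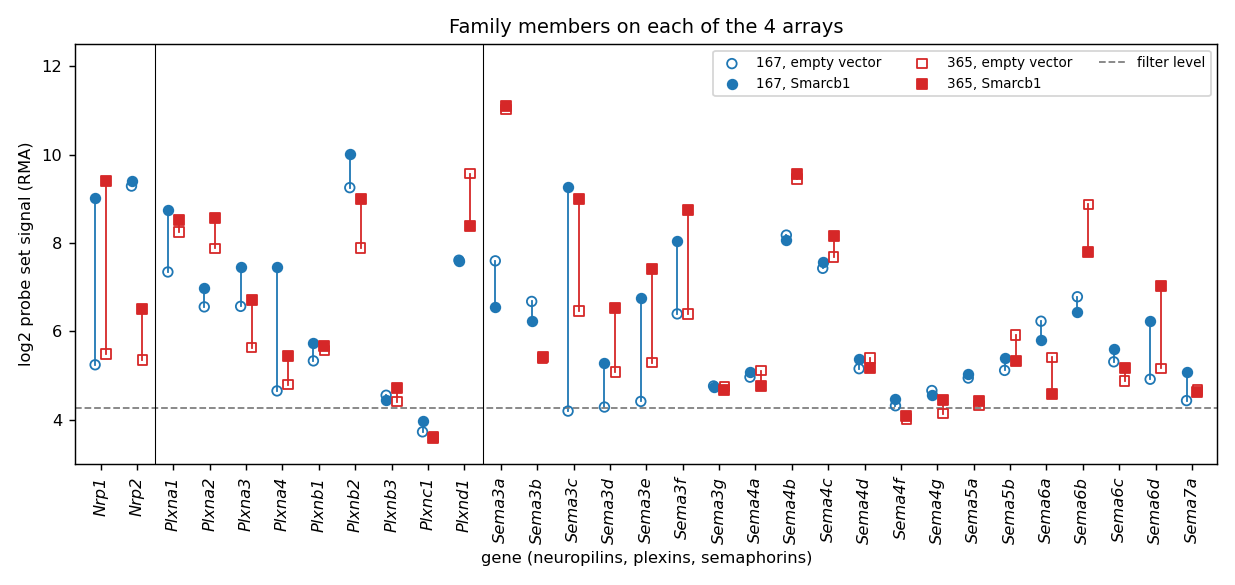
The log2 signal (vertical axis) of each of the 31 genes (horizontal axis) is shown for line 167 (blue circles) and line 365 (red squares), with empty vector (open) and with Smarcb1 (filled), 1 array per point; the dashed line is the filter level of 4.27. Nrp1, Sema3c, Sema3e, Sema3f and Sema6d are higher with Smarcb1 in both lines, while Sema3a, Nrp2 and Sema4b differ mainly between the lines.

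In the limma fit over 13956 genes 9 were called higher with Smarcb1 at an adjusted p below 0.05 (0.0645%) and 0 lower. Nrp1 was 1 of the 9, and the other 30 members were not among them. At an unadjusted p below 0.05 the same fit held 11 members higher and 2 lower, beside 820 and 793 of all tested genes. Since the family was chosen with this contrast known, nothing is read from these counts.

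Neuropilins come first among the receptors. Nrp1 (probe set 10576639) encodes the co-receptor that binds Sema3a and VEGF. Its signal was log2 5.25 with empty vector and 9.01 with Smarcb1 in line 167, and 5.49 and 9.40 in line 365. Both arrays with Smarcb1 lay above both controls, and the levels without Smarcb1 were alike in the 2 lines. The change was 3.84 ± 0.10 (SD, n = 2 lines), or 13.6-fold in line 167 and 15.1-fold in line 365.

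Nrp2 encodes the related co-receptor that prefers Sema3f and binds VEGF-C. Its signal was 9.29 without and 9.41 with Smarcb1 in line 167, against 5.36 and 6.51 in line 365. Both arrays of line 167 lay above both arrays of line 365, and the vectors overlapped. The change was 0.12 in line 167 and 1.15, or 2.22-fold, in line 365. Nrp1 thus moved with the vector in both lines, whereas Nrp2 differed mainly between the lines.

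Class A plexins, the partners of neuropilins in class 3 signalling, were all 4 higher in both lines, 2 of them past 2-fold in line 167 and 1 in line 365. Of all named genes 27.3% were higher in both lines, 2.53% past 2-fold in line 167 and 2.04% in line 365. Plxna4 encodes a receptor for Sema3a and Sema6a. It had a log2 signal of 4.65 without and 7.46 with Smarcb1 in line 167, against 4.80 and 5.44 in line 365. The start was similar in both lines, and the increase was 7.01-fold in line 167 and 1.56-fold in line 365. Plxna1, which encodes a receptor for Sema3a and Sema6d, had a log2 signal of 7.34 without and 8.74 with Smarcb1 in line 167, or 2.62-fold, against 8.25 and 8.53 in line 365. Plxna3 had a log2 signal of 6.57 without and 7.45 with Smarcb1 in line 167, against 5.63 and 6.72 in line 365, which is 1.85-fold and 2.12-fold. Plxna2, a receptor gene for Sema6a, differed by 0.43 and 0.69. Plxna3 and Plxna2 had the smaller gaps between the lines, with SDs of 0.14 and 0.19 (n = 2 lines), and Plxna4 the widest at 1.53.

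Of the 3 class B plexins, which act with receptor tyrosine kinases and bind class 4 semaphorins, Plxnb2 was the member past 2-fold in a line. Its signal was 9.25 and 10.0 in line 167 and 7.88 and 9.0 in line 365, changes of 1.69-fold and 2.16-fold. Plxnb1, a receptor gene for Sema4d, differed by 0.40 and 0.10, and Plxnb3 by -0.11 and 0.30. Plxnc1, whose product binds Sema7a, lay between 3.60 and 3.97 on the 4 arrays, below the filter level on each, so signal above background was not shown.

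Plxnd1, which encodes the receptor that Sema3e binds without a neuropilin, went the other way. Its signal was 7.61 without and 7.58 with Smarcb1 in line 167, and 9.57 and 8.38 in line 365. In line 365 it was thus 2.28-fold lower with Smarcb1, and in line 167 the values were nearly equal. Its level in line 365 stayed above that in line 167 with either vector.

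Class 3 held the largest changes among the ligands, with 3 of 7 members at least 2-fold higher in both lines and medians of 0.99 in line 167 and 1.44 in line 365. Of all named genes 0.933% met that limit, and nothing is read from the count. Sema3c, a ligand of neuropilins and Plxnd1 needed for the cardiac outflow tract, had a log2 signal of 4.20 without and 9.26 with Smarcb1 in line 167, against 6.47 and 8.99 in line 365. The 2 arrays with Smarcb1 reached similar values from different starts. The increase was 5.06 (33.4-fold) in line 167 and 2.52 (5.74-fold) in line 365, a mean of 3.79 ± 1.80 (SD, n = 2 lines). The line 167 control lies below the filter level, so the size of its change is uncertain.

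Sema3e, the ligand of Plxnd1, had a log2 signal of 4.42 without and 6.75 with Smarcb1 in line 167, against 5.29 and 7.42 in line 365. Both arrays with Smarcb1 lay above both controls, and the changes were 2.34 and 2.13. The mean change was 2.23 ± 0.15 (SD, n = 2 lines), or 4.70-fold.

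Sema3f, the ligand that prefers Nrp2, started at 6.40 in line 167 and 6.39 in line 365 and stood at 8.04 and 8.75 with Smarcb1. The controls of the lines differed by -0.0036 (365 minus 167), and both arrays with Smarcb1 lay above them. The changes were 1.64 and 2.36, a mean of 2.00 ± 0.51 (SD, n = 2 lines).

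Sema3d, another secreted ligand, had a log2 signal of 4.29 without and 5.28 with Smarcb1 in line 167, against 5.08 and 6.52 in line 365. It was 1.98-fold higher in line 167, just under the limit of 2-fold, and 2.71-fold higher in line 365. Both of its controls were dim, and that of line 167 lay close to the filter level.

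The other 3 class 3 genes were not higher in both lines. Sema3a, the collapsin that repels axons through Nrp1 and class A plexins, had signals of 7.60 without and 6.55 with Smarcb1 in line 167, and 11.0 and 11.1 in line 365. It was 2.07-fold lower in line 167 and nearly equal in line 365, where both arrays were far above line 167. Sema3b differed by -0.44 and 0.04, and Sema3g lay between 4.67 and 4.77 on all arrays.

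**Figure D2:**
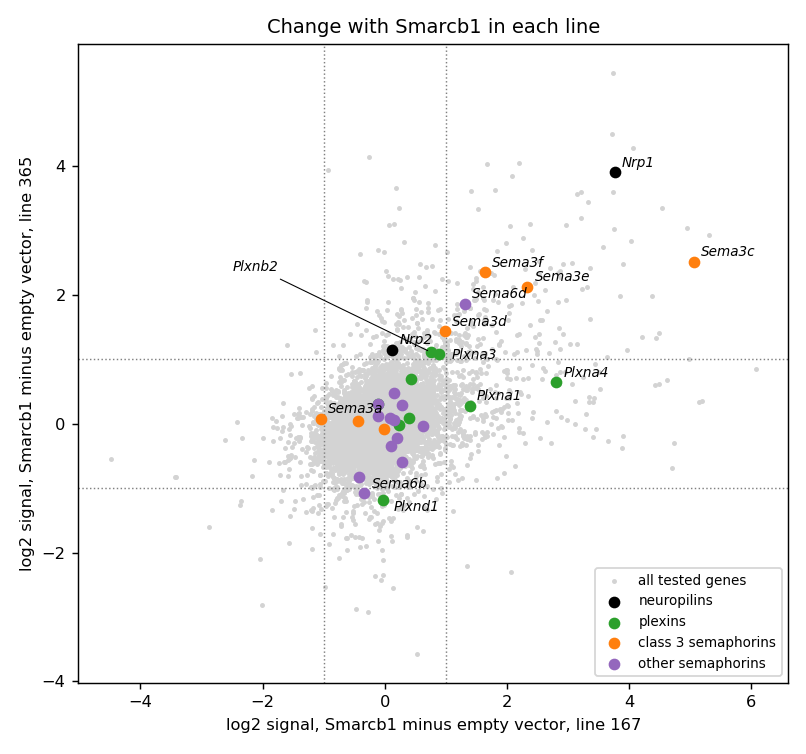
Each point is a gene, with its log2 change (Smarcb1 minus empty vector) in line 167 on the horizontal axis and in line 365 on the vertical axis, from 1 pair of arrays each; grey points are all tested genes, and dotted lines mark 2-fold. Nrp1, Sema3c, Sema3e, Sema3f and Sema6d lie past 2-fold higher in both lines. Plxna4 and Plxna1 lie past 2-fold higher in line 167 only, and Nrp2, Plxna3, Plxnb2 and Sema3d in line 365 only. Sema3a lies past 2-fold lower in line 167, and Plxnd1 and Sema6b in line 365.

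Among the membrane-bound ligands Sema6d was the member past 2-fold in both lines. Sema6d, a ligand of Plxna1, had a log2 signal of 4.92 without and 6.23 with Smarcb1 in line 167, against 5.16 and 7.02 in line 365. Both arrays with Smarcb1 lay above both controls, with increases of 2.49-fold and 3.64-fold and a mean of 1.59 ± 0.39 (SD, n = 2 lines).

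The other class 6 genes did not follow Sema6d. Sema6b, which has 2 probe sets with identical values, had signals of 6.78 without and 6.45 with Smarcb1 in line 167 and 8.87 and 7.80 in line 365. It was 2.10-fold lower in line 365, and both arrays of that line lay above both arrays of line 167. Sema6a differed by -0.43 and -0.82, and Sema6c by 0.28 and 0.29.

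None of the 6 class 4 genes, which include ligands of class B plexins, reached 2-fold in either line. Sema4c, a ligand of Plxnb2, differed by 0.15 and 0.48, and Sema4b by -0.11 and 0.12. Sema4d, a ligand of Plxnb1 that also acts on lymphocytes, has 2 probe sets that disagree. The brighter one differed by 0.21 in line 167 and -0.23 in line 365, and the other by -0.63 and -0.26. Sema4a and Sema4g differed in opposite directions in the 2 lines, and Sema4f lay between 4.02 and 4.47. Sema5a differed by 0.09 and 0.10, Sema5b by 0.28 and -0.59, and the lipid-anchored Sema7a by 0.64 and -0.03. In all, 17 members stayed under 2-fold in both lines, with values between -0.44 and 0.64 in line 167 and between -0.82 and 0.69 in line 365.

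Lines 167 and 365 were next compared, with the vector as a term in the same limma fit. Of the 29 tested members 9 (31.0%) passed at an adjusted p below 0.05, 5 higher and 4 lower in line 365. Of all 13956 tested genes 10.9% passed, 5.31% higher and 5.64% lower in line 365. The p-value sets the mean line difference against how far it varied between the vectors, moderated across genes, so it measures the spread between these 4 arrays and not between tumours. With both vectors 4 members were at least 2-fold higher in line 365, against 2.07% of all named genes, and 2 were lower, against 2.26%. Without the vector in the model 3 of the 9 passed, Sema3a, Nrp2 and Sema4b.

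Sema3a had the widest difference. It was 10.7-fold higher in line 365 with empty vector and 23.5-fold higher with Smarcb1, a mean of 3.99 ± 0.29 (moderated SE, limma adjusted p = 0.00579). Nrp2 was 15.3-fold lower in line 365 with empty vector and 7.49-fold lower with Smarcb1, a mean of -3.42 ± 0.29 (limma adjusted p = 0.00771). Line 365 thus had the higher signal of the ligand gene Sema3a and the lower signal of the co-receptor gene Nrp2, while Nrp1 did not pass (0.32 ± 0.18, limma adjusted p = 0.311).

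Sema6b was higher in line 365 by 1.72 ± 0.24 (moderated SE, limma adjusted p = 0.0230), Plxna2 by 1.45 ± 0.18 (0.0174), Sema4b by 1.38 ± 0.15 (0.0133) and Sema3d by 1.02 ± 0.20 (0.0421). The Sema4b signal was 8.18 and 8.07 in line 167 and 9.44 and 9.57 in line 365, and the Plxna2 signal 6.55 and 6.98 against 7.88 and 8.57, with empty vector first. The lines did not overlap in either gene. Lower in line 365 were Plxnb2 at -1.19 ± 0.16 (adjusted p = 0.0205), Sema3b at -1.05 ± 0.21 (0.0478) and Sema6a at -1.01 ± 0.19 (0.0428). The Sema3b signal was 6.68 and 6.24 in line 167 against 5.39 and 5.43 in line 365, and that of Sema6a 6.23 and 5.81 against 5.41 and 4.59. In both genes line 167 lay above line 365 on every array. Plxnd1, at 1.38 ± 0.31, missed the threshold (limma adjusted p = 0.0577), and passed without the filter (0.0488).

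For Sema3c and Plxna4 the line difference was not alike with the 2 vectors. Sema3c was 4.82-fold higher in line 365 with empty vector and 1.21-fold lower with Smarcb1. Plxna4 was 1.10-fold higher in line 365 with empty vector and 4.07-fold lower with Smarcb1. With 1 array for each line and vector this gap has no test.

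Plexins, neuropilins and class 3 semaphorins are known from vessels. Of 11 listed endothelial markers the filter left out 6. Of the 5 tested, 2 passed as higher in line 365 and 0 as lower, where 5.31% and 5.64% of all tested genes did. Of these 2, Cdh5 lay below the filter level on both arrays of line 167 and was tested only through its level in line 365. Nothing is read from this count. The median level of the 11 markers was 3.95 and 4.07 in line 167 and 4.35 and 4.43 in line 365, with empty vector first. Their mean level was 4.14 and 4.23 in line 167 and 5.06 and 5.0 in line 365. Cdh5, the cadherin of endothelial junctions, was at 3.78 and 3.64 in line 167 and at 9.06 and 8.29 in line 365, and Esam, another junction protein gene, at 4.60 and 4.38 and at 8.17 and 8.48. The other tested markers, Tie1, Vwf and Cldn5, did not pass, with mean differences (365 minus 167) of 0.26, -0.09 and -0.007. Tek, Emcn, Erg and Sox17 were below the filter level on all 4 arrays. Of the 8 mesenchymal markers 3 passed as lower in line 365 and 0 as higher, where 5.64% and 5.31% of all tested genes did. Col3a1 differed by -5.19 (limma adjusted p = 0.00223), Pdgfrb by -4.08 (0.00348) and Col1a2 by -2.14 (0.0491). The part of either list in the line differences was not tested.

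**Figure D3:**
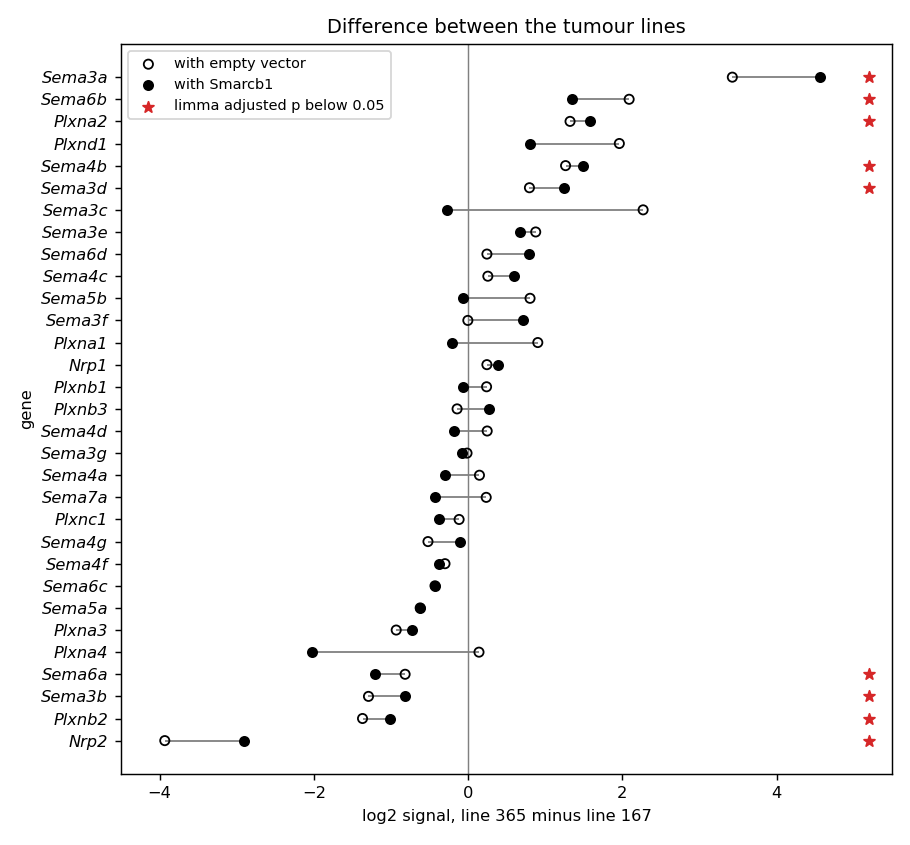
For each gene (vertical axis, ordered by the mean) the log2 difference between line 365 and line 167 (horizontal axis) is shown with empty vector (open circle) and with Smarcb1 (filled circle), 1 array pair each; a red star marks a limma adjusted p below 0.05. Sema3a lies at 3.42 and 4.55 and Nrp2 at -3.93 and -2.90, while the circles of Sema3c and Plxna4 lie far apart.

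Sema3d, Sema3a, Sema3e and Sema3c lie in this order along chromosome 5 in RefSeq's GRCm38.p6 gene table. Between the first and the last the table has 22 protein-coding genes, both ends included, of which 8 are named on the array. The changes of the 4 semaphorin genes were 0.99, -1.05, 2.34 and 5.06 in line 167 and 1.44, 0.08, 2.13 and 2.52 in line 365. Measured genes between them that are no semaphorins stayed under 2-fold, with Cacna2d1, a calcium channel subunit gene, at 0.54 and 0.87 and the hepatocyte growth factor gene Hgf at 0.47 and 0.22. Pclo, at 0.13 and -0.05, and Speer3, at 0.23 and -0.18, were dim. Hgf was also dim in line 167, at log2 3.70 without and 4.18 with Smarcb1, both below the filter level. Sema3a thus lay between 2 genes of the same class that were higher with Smarcb1 in both lines.

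**Figure D4:**
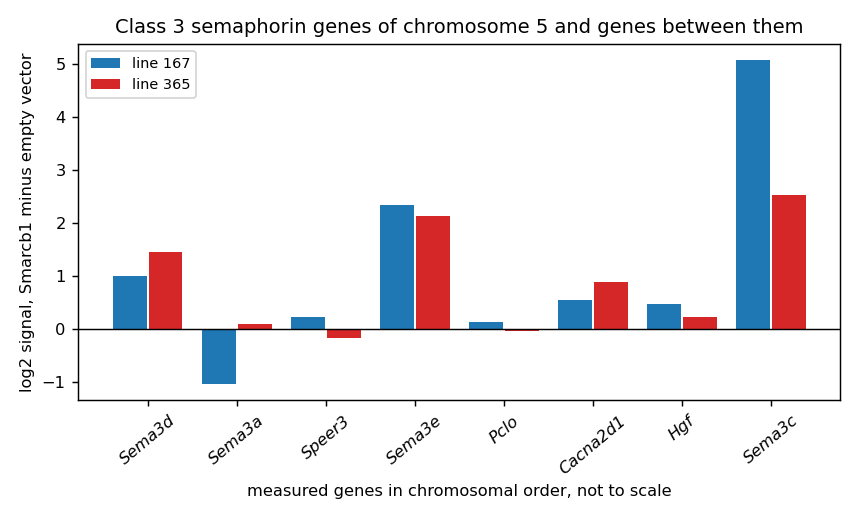
Bars give the log2 change (Smarcb1 minus empty vector, vertical axis) in line 167 (blue) and line 365 (red) for the measured genes in the order they have on chromosome 5 (horizontal axis, not to scale), 1 array pair per bar. Sema3e and Sema3c stand above the genes around them in both lines, and Sema3a lies at -1.05 and 0.08.

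Genes that work with the family were taken from 4 lists, drawn up with earlier results of these data known. Their counts, also those for the line, are therefore descriptions. The VEGF list had 8 genes, all tested, with medians of 0.27 in line 167 and 0.21 in line 365. In the limma fit 0 passed for Smarcb1 and 0 for the line (1 at an unadjusted p below 0.05). Only 1 was at least 2-fold higher with Smarcb1 in both lines, against 0.933% of all named genes. This was Vegfc, the lymphatic growth factor that binds Nrp2, with log2 7.33 without and 9.08 with Smarcb1 in line 167, against 7.82 and 9.35 in line 365. Outside the rule for naming genes, and chosen after its values were seen, the related growth factor gene Vegfd differed by 2.89 in line 167 and 0.11 in line 365. Also outside that rule, the placental growth factor gene Pgf differed by 1.26 and -0.84, the receptor gene Kdr by 0.19 and 0.24, and Vegfa by 0.34 and 0.30.

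Of 15 co-receptors and binding partners 10 were tested. None passed for Smarcb1 or reached 2-fold in both lines, and the medians were 0.14 and 0.14. For the line, 1 passed as higher and 1 as lower in line 365, where 5.31% and 5.64% of all tested genes did. The Met gene, whose product is the hepatocyte growth factor receptor that associates with class B plexins, was higher by 2.18 (limma adjusted p = 0.00401), with a change of 0.12 and 0.22 on Smarcb1. Ptk7, a pseudokinase receptor of planar cell polarity, was lower, at -2.73 (adjusted p = 0.00634).

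The plexin signalling list had 30 matched genes of 32, with medians of 0.02 and 0.17. For Smarcb1 0 passed limma's test, and 3 were at least 2-fold higher in both lines, against 0.933% of all named genes. Dpysl3 and Crmp1 encode collapsin response mediators, cytoplasmic proteins that act below Sema3a in axons. Other genes of this kind in the list, named beyond the rule, stayed under 2-fold. Dpysl2 differed by 0.20 in line 167 and 0.695 in line 365, Dpysl4 by 0.18 and -0.22, and Dpysl5 by -0.05 and -0.28. Dpysl3 had a log2 signal of 7.83 without and 9.47 with Smarcb1 in line 167, against 7.90 and 9.83 in line 365, and Crmp1 of 7.09 and 8.26 against 5.27 and 6.36. Rnd3 had a log2 signal of 5.70 and 8.74 against 7.43 and 8.67 in the same order. The related gene Rnd1, whose product binds plexins, was at -0.62 and -1.77.

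For the line 4 genes of that list passed as higher in line 365 and 2 as lower, where 5.31% and 5.64% of all tested genes did. Rras2, a GTPase gene of the R-Ras group, was higher by 3.54 (limma adjusted p = 0.0104) and Rnd1 by 2.41 (0.0194). Limk1, a kinase gene for cofilin, and Fyn, a Src family kinase gene, were higher by 1.98 and 1.28, and are named here beyond the rule, after their values were seen. Crmp1 was lower, at -1.86 (0.0106), and Mical1, an actin-oxidising enzyme that binds class A plexins, at -1.25 (0.0274).

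Of 20 genes of other guidance families (slits, netrins, repulsive guidance molecules and their receptors) 16 were tested. None passed for Smarcb1 or was 2-fold different in both lines, and the medians were 0.13 and 0.29. For the line 2 passed each way, where 5.31% of all tested genes were higher in line 365 and 5.64% lower. The netrin gene Ntn4 was higher in line 365 by 3.20 (limma adjusted p = 0.0300) and the netrin receptor gene Neo1 by 1.10 (0.0128), and the slit receptor gene Robo1 was lower, at -2.21 (0.0104), as was the netrin receptor gene Unc5b, at -1.82 (0.0274). The 0 calls for Smarcb1 in these lists are at an adjusted p. At an unadjusted p below 0.05 limma held 1 of 8 genes of the VEGF list as higher and 0 as lower, and 1 and 0 of the 10 tested partners. It held 6 and 1 of the plexin signalling genes, and 5 and 0 of the other guidance genes. Of all tested genes 5.88% were higher and 5.68% lower at that threshold.

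**Figure D5:**
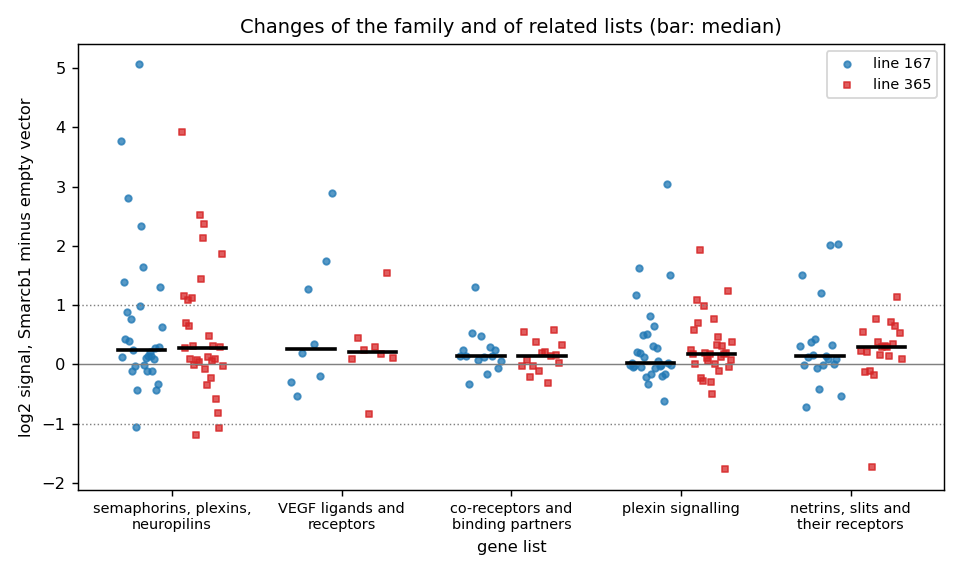
Each point is 1 gene, with its log2 change (Smarcb1 minus empty vector, vertical axis) in line 167 (blue circles) or line 365 (red squares), by gene list (horizontal axis); black bars are medians and dotted lines 2-fold. The family has medians of 0.24 and 0.28 and its highest points at 5.06 (Sema3c) and 3.91 (Nrp1). The other lists reach 3.04 in line 167 and 1.93 in line 365. Within 2-fold in both lines lie 17 of the 31 family members. In the other lists, from left to right, 5 of 8, 14 of 15, 25 of 30 and 14 of 20 genes do.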

How the data were processed

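The 4 arrays hold log2 probe set signals that the authors deposited. The submitters' processing notes name RMA and Affymetrix Expression Console. RMA equalizes the distributions of the arrays after a background step and summarizes probes, so a change of total RNA per cell is not visible. Versions and settings: not given in the sources used here. These log2 values entered unchanged, with medians of 5.03 to 5.07 per array. The platform annotation names 1 gene for 21789 of 35556 probe sets and several for 1621, and does not list 12146. For a gene with several probe sets the brightest was used. Tests used genes whose mean reached log2 4.27, the 30th percentile.

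The model had a term for the line and for the vector (limma 3.58.1, R 4.3.3, eBayes with an intensity trend, Benjamini-Hochberg over 13956 genes). It has 1 residual degree of freedom and 3.75 prior ones, and the SE given as moderated comes from it. The lines pair the arrays, with a correlation of deviations of 0.770. The fit was tested on simulated data. The members and lists were chosen with earlier results of these data known. Given in full are the neuropilins, members past 2-fold with Smarcb1 in a line, and members past the line test; from each list, up to 6 genes called or 2-fold changed in both lines. The number of arrays limits the precision. Alternatives were the filter, quantile and cyclic loess normalization, no trend, probe set means, the model terms, single lines and a 1.5-fold limit.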

Additional observations from a re-analysis of the deposited data

Results flagged for a closer look

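Sema3a was lower with Smarcb1 in line 167, at -1.05, and nearly equal in line 365, at 0.08. It stands here because the signs are opposite and the gap between the lines (365 minus 167), 1.13 on the log2 scale, is above 2-fold. Sema3c, Plxna4 and Plxnd1 had wider gaps, of -2.54, -2.16 and -1.16, with the same sign in both lines. None of these gaps was tested, since each line has 1 array per vector.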

How the results depend on the processing

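Alternatives moved the counts more than the values. Genes called higher with Smarcb1 numbered 9 in the fit described, 64 when unfiltered, 91 when the filter was raised to the 50th percentile, 47 with quantile-normalized values, 48 with cyclic loess and 0 with no replicate block (the cell line left out), where 450 genes had an unadjusted p below 0.05. Genes called lower numbered 4, 10, 1 and 1 under the first 4 of these alternatives. Members called higher numbered 2, 3, 2, 2 and 0 in the same order, and nothing is read from these counts, since this contrast led to the choice of the family. The raised filter left Sema3d and Sema6a untested for the line; Plxnd1 passed the line test when unfiltered and under the raised filter, and Plxna3 under the raised filter and quantile normalization. With the line alone in the model 335 genes were higher and 318 lower in line 365, with 2 members higher and 1 lower. The other alternatives kept the counts of line calls within 1.5 times. The median change of the members was 0.25, or 0.22 after quantile normalization, and 0.24 to 0.28 in single lines. At a 1.5-fold limit 9 members were higher in both lines, against 2.01% of all named genes; leaving out a line gave 7 to 9 members past 2-fold higher and 1 to 2 lower. The Nrp1 change was 3.76 to 3.91 in single lines. Among the alternatives run no called value changed sign. No test is possible with 1 line left out, as no residual remains. Dim signals near the filter level limit Sema3c, Sema3d and Sema3e.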

Other observations

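With Smarcb1, the genes next to Nrp1 on its chromosome stayed under 2-fold. Pard3, a cell polarity gene on one side, differed by -0.29 in line 167 and -0.31 in line 365, and Itgb1, the integrin beta subunit gene on the other, by 0.07 and -0.11. Next to Sema3f, the transducin gene Gnat1 differed by 0.19 and 0.24 and the splicing factor gene Rbm5 by -0.11 and 0.10. Next to Sema6d, Sqor differed by 0.11 and -0.14 and the dim Slc24a5 by 0.20 and -0.03. Further out on the side of Sqor, Slc30a4 was past 2-fold higher in line 167, at 1.12, and at -0.67 in line 365.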
